A study of Mus musculus with 12 samples.

Results

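The 5p arm of miR-122 had the lowest p-value of all entries in each comparison of Pdx1-Cre-labelled cells with the earlier endoderm, and it ranked between the 1st and the 7th most counted entry in every one of the 9 Pdx1-Cre libraries. The miR-122 entries were taken by name, as every row of the count table for a mature arm of miR-122 or for its precursor. They came to 3 of 1053 entries: the mature arms mmu-miR-122-5p and mmu-miR-122-3p and the precursor entry mmu-mir-122, written below without the species prefix. Of these, miR-122-5p and mir-122 passed the filter on low counts (571 of 1053 entries did), and miR-122-3p did not. The gene Mir122 lies on chromosome 18, 65248861 to 65248926 of GRCm38, on the plus strand, and covers 66 bases. It falls in an exon (65245359 to 65252621) of AC157910.3, a long intergenic noncoding RNA annotated on the same strand. The nearest protein-coding genes were Alpk2, 16603 bases away on the minus strand, and Nedd4l, 31033 bases away on the plus strand.

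MicroRNAs are cut from a hairpin precursor into a duplex, of which one arm is usually kept by an Argonaute protein and the other is lost. The retained arm guides repression of mRNAs that pair with its seed, the bases at positions 2 to 8. miR-122 is best known as the dominant miRNA of hepatocytes, with roles in lipid metabolism and liver identity, and the liver bud arises from foregut endoderm beside the ventral pancreatic bud. Pdx1 is a transcription factor of the pancreatic, duodenal and distal stomach primordia.

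Small RNA was sequenced from sorted mouse embryonic cells in 12 libraries, 3 at each of 4 stages. The E8.5 libraries held Foxa2-CreER, tdtomato+ endoderm from whole embryos, labelled by an inducible Cre at the Foxa2 locus after tamoxifen was given to the dam at E6.5. The E9.5, E10.5 and E11.5 libraries held Pdx1-Cre, tdtomato+ cells from the trunk, labelled by a transgene that also marks cells outside the pancreas and all their descendants. Sires in these crosses carried 1 GFP allele of mir-302, and whether an embryo inherited it is not given. A comparison with E8.5 thus also changes the Cre and the part of the embryo that was dissected. A number in the library names was shared within a stage, so that any batch it marks and the stage cannot be told apart. In stage order, total counts per library ran from 386094 to 594224, from 53996 to 80075, from 133435 to 267978 and from 417743 to 1103383. The E9.5 libraries were thus the shallowest. The labels do not say whether replicates came from separate embryos, so p-values measure the spread between these samples. Where values follow each other in stage order, they run from E8.5 through E9.5 and E10.5 to E11.5, and within a stage from replicate 1 to replicate 3.

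Mature sequences in 2 sets, from RefSeq on GRCm38.p6, accompany the results, with the seed in capitals. The first set holds the 5 arms whose levels followed miR-122-5p most closely over the 12 libraries, of which miR-7a-5p and miR-7b-5p share the seed GGAAGAC. The second set holds liver-related arms, of which miR-192-5p and miR-215-5p share the seed UGACCUA.
miR-24-3p: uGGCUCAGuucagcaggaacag
miR-7b-5p: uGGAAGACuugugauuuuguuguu
miR-7a-5p: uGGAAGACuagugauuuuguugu
miR-382-5p: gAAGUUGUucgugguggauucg
miR-205-5p: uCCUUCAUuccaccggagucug
miR-192-5p: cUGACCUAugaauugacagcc
miR-215-5p: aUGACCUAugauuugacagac
miR-194-5p: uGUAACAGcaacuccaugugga
miR-24-3p is made at chr8:84208875-84208896 (plus strand) and chr13:63301251-63301272 (plus strand), and miR-7a-5p at chr7:78888295-78888317 (plus strand) and chr13:58392841-58392863 (minus strand). miR-7b-5p lies at chr17:56243017-56243040 (plus strand), miR-382-5p at chr12:109733781-109733802 (plus strand) and miR-205-5p at chr1:193507503-193507524 (minus strand). miR-192-5p (chr19:6264857-6264877, plus strand) lies beside 1 copy of miR-194-5p (chr19:6264658-6264679, plus strand), and miR-215-5p (chr1:185313610-185313630, plus strand) beside the other (chr1:185313325-185313346, plus strand).

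miR-122-5p, the guide arm, was low in every E8.5 library and high in every later one. It held 343, 190 and 320 counts at E8.5, which correspond to 593, 491 and 463 CPM (the count scaled to a fixed library total after TMM scaling). At E9.5 it held 5619, 6017 and 1533 counts, or 91247, 64255 and 38765 CPM. At E10.5 it held 18903, 15223 and 18410 counts, or 71952, 130754 and 71728 CPM. The highest single value was thus in E10.5 replicate 2. At E11.5 it held 30689, 47401 and 35854 counts, or 69956, 43357 and 43118 CPM. The lowest Pdx1-Cre library, E9.5 replicate 3, stood far above the highest E8.5 library, so its levels did not overlap between the labelled populations. Of all tested entries, 34.3%, 36.6% and 38.5% likewise did not overlap between E8.5 and E9.5, E10.5 and E11.5, in that order. In stage order the means were 516 ± 68.7, 64756 ± 26245, 91478 ± 34014 and 52144 ± 15427 CPM (SD, n = 3 each).

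**Figure D1:**
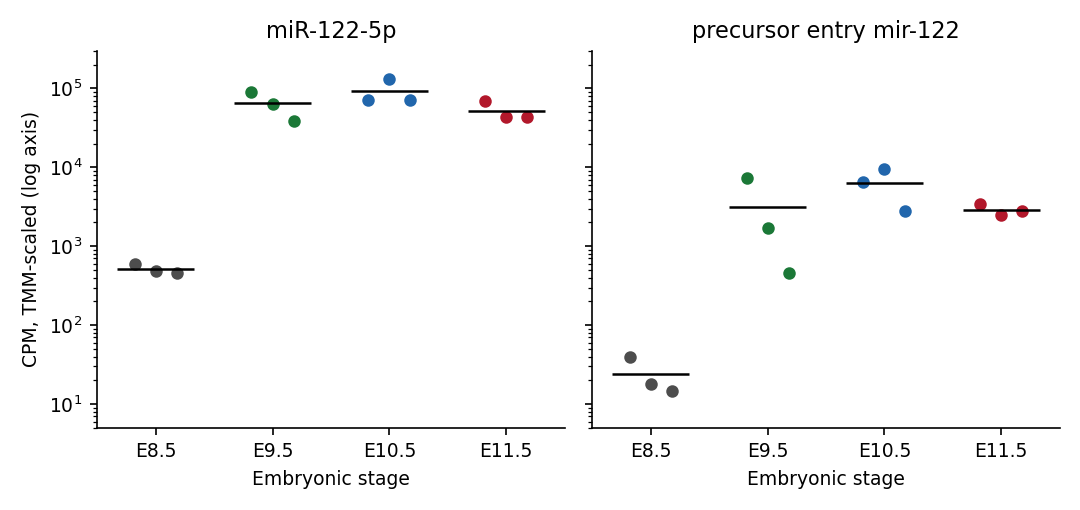
Level of miR-122-5p (left) and of the precursor entry mir-122 (right) in CPM on a shared log axis, by embryonic stage. Each point is 1 library and the bar is the stage mean of 3 libraries. For both entries all 9 Pdx1-Cre libraries lie above the 3 E8.5 libraries, and the precursor is spread most widely at E9.5, from 455 to 7243 CPM. Between E8.5 and a later stage, 34.3% to 38.5% of all tested entries do not overlap.

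Both tested miR-122 entries (2 of 2) were higher at E9.5 than at E8.5, where 5.6% of the 571 entries were called (edgeR quasi-likelihood test, adjusted p under 0.05). miR-122-5p was 126-fold higher (log2 fold change 6.97, SE 0.37, adjusted p 2.24e-12), with a 95% interval of 75.9 to 208 from its SE. It had the smallest p-value of the 571 entries and the 6th largest rise. Over all entries the median in this comparison was -0.84, against which miR-122-5p stood 7.82 higher. In a bulk library, fewer cells of a type and less RNA per cell cannot be told apart.

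Both entries also stood above E8.5 at the later stages. Of all entries, 8.58% were called between E10.5 and E8.5 and 11.6% between E11.5 and E8.5. miR-122-5p was 177-fold higher at E10.5 (log2 fold change 7.47, SE 0.38, adjusted p 8.36e-13) and 101-fold higher at E11.5 (6.66, SE 0.37, adjusted p 4.36e-12). Its p-value was the smallest of all entries in these comparisons as well. The comparisons share the same 3 E8.5 libraries and are therefore not independent of each other. Leaving out each of the 12 libraries in turn kept the log2 fold change of miR-122-5p against E8.5 within 6.57 to 7.29 for E9.5, within 7.09 to 7.73 for E10.5, and within 6.52 to 6.83 for E11.5, always called.

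Between the Pdx1-Cre stages no miR-122 entry was called by edgeR, DESeq2 or limma voom, and of the 6 tests 1 had an unadjusted p under 0.05. From E9.5 to E10.5, where 4.38% of entries were called, miR-122-5p differed by 0.50 on the log2 scale (SE 0.29, adjusted p 0.344). The 95% interval of its ratio was 0.958 to 2.08, and with RLE scaling or DESeq2 the difference was 0.07. From E10.5 to E11.5, where 0.35% of entries were called, each of the 3 E11.5 libraries was below all 3 E10.5 libraries in miR-122-5p CPM, and 13.5% of all entries likewise did not overlap. The difference was -0.81 on the log2 scale (SE 0.29), with an unadjusted p of 0.00980 and an adjusted p of 0.298. From E9.5 to E11.5, where 4.55% of entries were called, the difference was -0.31 (SE 0.29, adjusted p 0.524), and without E9.5 replicate 1 it was 0.10. With RLE scaling it was -1.02 (adjusted p 0.0567), and with DESeq2 also -1.02 (adjusted p 0.150). In order of mean level the stages ran E10.5, E9.5, E11.5 and E8.5, and of these neighbours only E11.5 and E8.5 differed beyond their spread by this test.

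As a share of all counts, miR-122-5p rose from a trace to a main component of the library. In stage order it made up 0.0563% ± 0.00865, 6.37% ± 3.12, 8.70% ± 2.36 and 5.30% ± 1.77 (SD, n = 3 each). The smallest share in a Pdx1-Cre library was 2.84% (95% exact Clopper-Pearson interval 2.70 to 2.98) in E9.5 replicate 3, and the largest was 11.4% (11.2 to 11.6) in E10.5 replicate 2. These intervals cover counting error only, since PCR reads without molecular identifiers are not independent molecules. The spread between replicates was far wider than the intervals.

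Ranked among all 1053 entries, miR-122-5p was 160th, 189th and 183rd in the E8.5 libraries. It ranked 2nd, 3rd and 7th at E9.5, 1st, 1st and 2nd in the E10.5 libraries, and 1st, 6th and 6th at E11.5. By mean share, mir-6236 (14.7% ± 6.57) and miR-92a-3p (6.72% ± 1.55), an arm of a family linked to proliferation, stood above it at E9.5. Nothing stood above it at E10.5. At E11.5 miR-92a-3p (8.17% ± 2.04) and the arms miR-182-5p (6.30% ± 0.445) and miR-183-5p (6.09% ± 0.803), which come from 1 cluster, stood above it. The precursor entry mir-6236 was itself higher at E9.5 than at E8.5 (log2 fold change 3.74, SE 0.43, adjusted p 3.03e-06) and lower again at E10.5 (-3.13 against E9.5, SE 0.42, adjusted p 0.000113), and its part in the E9.5 shares was not tested.

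Among the 21 most abundant mature arms of the Pdx1-Cre libraries, miR-122-5p was the 2nd by mean share (6.79%). Its CPM varied with a coefficient of variation of 41.3% over these 9 libraries, the 15th lowest of the 21, and the highest CPM was 3.37 times the lowest. miR-92a-3p, the most abundant, varied by 17.8%. The level of miR-122-5p was therefore less even than that of most of these arms.

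The precursor entry mir-122, which is named for the hairpin from which the arms are cut, followed the same broad pattern at lower counts. It held 23, 7 and 10 counts at E8.5, or 39.8, 18.1 and 14.5 CPM. At E9.5 it held 446, 161 and 18 counts, or 7243, 1719 and 455 CPM. At E10.5 it held 1703, 1124 and 715 counts, or 6482, 9654 and 2786 CPM. Within both stages the libraries thus lay far apart. At E11.5 it held 1492, 2734 and 2354 counts, or 3401, 2501 and 2831 CPM, the narrowest range of the later stages. The floor of 3 counts corresponded to 4.34 to 7.75 CPM at E8.5 and to 32.0 to 75.9 CPM at E9.5.

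Against E8.5 the precursor entry was higher at all later stages. The log2 fold change was 7.01 for E9.5 (SE 0.96, adjusted p 2.80e-05), 8.01 for E10.5 (SE 1.00, adjusted p 5.20e-06) and 6.89 for E11.5 (SE 0.95, adjusted p 1.66e-05). The standard errors were larger than those of miR-122-5p. Without E9.5 replicate 1 the difference at E9.5 was 5.42, and without E8.5 replicate 1 the differences were, in stage order, 7.61, 8.63 and 7.52, all still called. Between Pdx1-Cre stages its log2 fold change was 1.00 from E9.5 to E10.5 (SE 0.74, adjusted p 0.457), -1.12 from E10.5 to E11.5 (SE 0.74, adjusted p 0.601) and -0.11 from E9.5 to E11.5 (SE 0.73, adjusted p 0.932). E9.5 replicate 1 decided the call from E9.5 to E10.5, which without it was 2.62 (adjusted p 0.0338), and it turned the difference from E9.5 to E11.5 to 1.49 (adjusted p 0.282).

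Because both entries moved, the precursor share of all miR-122 counts was compared. In the E8.5 libraries it was 6.28%, 3.55% and 3.03%, in the E9.5 libraries 7.35%, 2.61% and 1.16%, in the E10.5 libraries 8.26%, 6.88% and 3.74%, and in the E11.5 libraries 4.64%, 5.44% and 6.15%. The E9.5 libraries spanned nearly the whole range seen in the study, while those of E11.5 lay close together. Exact 95% intervals were wide at E8.5 (4.02 to 9.28% in replicate 1, from 23 counts) and narrow at E11.5 (5.25 to 5.65% in replicate 2). The stage means were 4.29% ± 1.75, 3.71% ± 3.24, 6.29% ± 2.32 and 5.41% ± 0.756, and all neighbouring stages overlapped. Without E9.5 replicate 1 the E9.5 mean was 1.88%, and the remaining E9.5 libraries lay below all E10.5 libraries.

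With all libraries, no difference in the precursor share between stages was detected. Exact two-sided permutation tests gave p = 0.8 for E9.5 against E8.5, p = 0.3 for E10.5 against E9.5 and p = 0.6 for E11.5 against E10.5, where 3 against 3 libraries cannot go below 0.1. Over the 9 Pdx1-Cre libraries the share was 5.14% ± 2.33, and against the 3 E8.5 libraries the exact permutation p was 0.573 (smallest possible 0.00909, adjusted over 4 comparisons 0.8). Among 168 hairpins with a precursor entry, an arm of the same name and at least 1000 counts, miR-122 was the 4th by counts. Arms named without a hairpin number, such as miR-7a-5p and miR-92a-3p, were not counted with the numbered hairpins. mir-7a-1 and mir-92a-1 thus had precursor shares of 99.8% and 99.6%. Such hairpins enter the rank by counts, the median and the quartiles, which limits what these say about miR-122. Its precursor share over all libraries, 5.63%, lay below the median of these hairpins, 6.82% (quartiles 3.33 to 14.7%), and 74 of the 168 had a lower share.

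**Figure D2:**
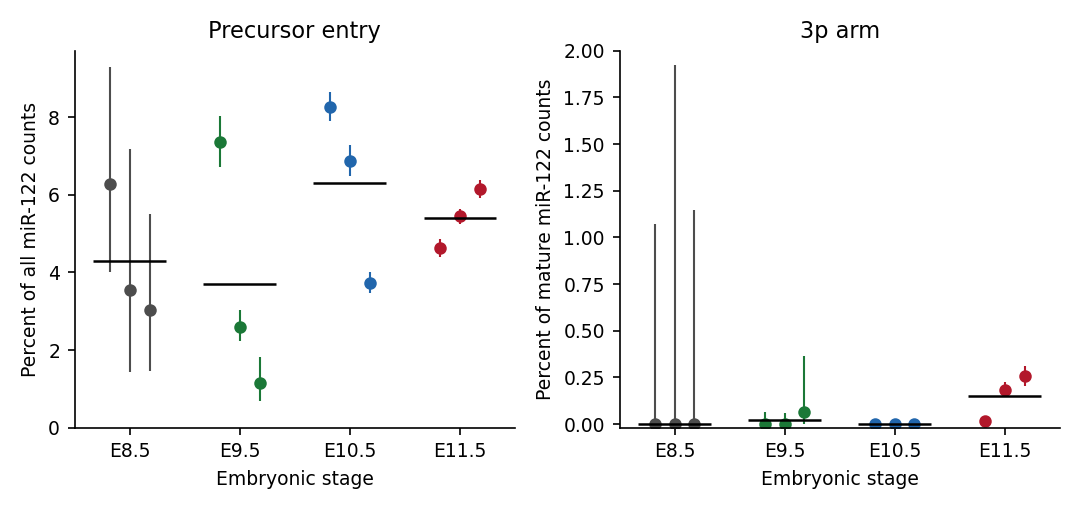
Precursor entry as a percent of all miR-122 counts (left) and 3p arm as a percent of mature miR-122 counts (right), by embryonic stage. Points are libraries with exact 95% intervals and bars are stage means. Precursor shares overlap between stages, while the 3p arm is above 0.1% in E11.5 replicates 2 and 3 alone, at 0.183% and 0.256%.

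miR-122-3p, the passenger arm, was nearly absent and was counted mainly at E11.5. It held 0 counts in all E8.5 and E10.5 libraries, 0, 0 and 1 at E9.5, and 5, 87 and 92 at E11.5. As a share of mature miR-122 counts it reached 0.0163% (exact 95% interval 0.00529 to 0.0380), 0.183% (0.147 to 0.226) and 0.256% (0.206 to 0.314) in the E11.5 libraries. Replicate 1 thus stood an order of magnitude below the others. The single count in E9.5 replicate 3 was 0.0652% (0.00165 to 0.363).

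Depth set different limits on these zeros. With 3 counts taken as the limit, a count of 0 allowed a share of up to 0.0159 to 0.0197% in the E10.5 libraries, which is about the share in E11.5 replicate 1 and below those in replicates 2 and 3. It allowed up to 0.0499 to 0.0534% in the 2 E9.5 libraries at 0 and up to 0.875 to 1.58% in the E8.5 libraries, so that the E11.5 shares would not have been detectable at E8.5. No test was run on the arm share. Among 110 of the hairpins with both arms listed, the minor arm of miR-122 made up 0.102% of mature counts over all libraries against a median of 5.02%, and 3 hairpins had a lower share.

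miR-122-5p was set against miR-375-3p, a miRNA of endocrine and pancreatic cells, within each library, which needs no scaling between libraries. The ratio of miR-122-5p to miR-375-3p counts was 0.0304, 0.0275 and 0.0285 in the E8.5 libraries. At E9.5 it was 3.28, 2.84 and 2.24, so that miR-122-5p outnumbered miR-375-3p in all 3 libraries. It was 1.03, 1.59 and 1.48 in the E10.5 libraries and 1.65, 0.688 and 0.907 in the E11.5 libraries. In E11.5 replicates 2 and 3 miR-375-3p was therefore the more abundant of the pair.

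On the log2 scale the mean ratio was, in stage order, -5.12 ± 0.073, 1.46 ± 0.279, 0.425 ± 0.333 and 0.013 ± 0.644 (SD, n = 3 each). Over the Pdx1-Cre libraries it was higher than at E8.5 by 5.75 (exact two-sided permutation p = 0.00909, the smallest that 9 against 3 libraries allow, adjusted over 4 comparisons 0.0364). E9.5 and E10.5 did not overlap, with a difference of -1.04, at the smallest p that the exact test allows for 3 against 3, 0.1 (adjusted 0.133). The same p of 0.1 held for E9.5 against E8.5. E11.5 and E10.5 overlapped (difference -0.41, exact permutation p = 0.4), and without E11.5 replicate 1 the E11.5 mean was -0.34.

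**Figure D3:**
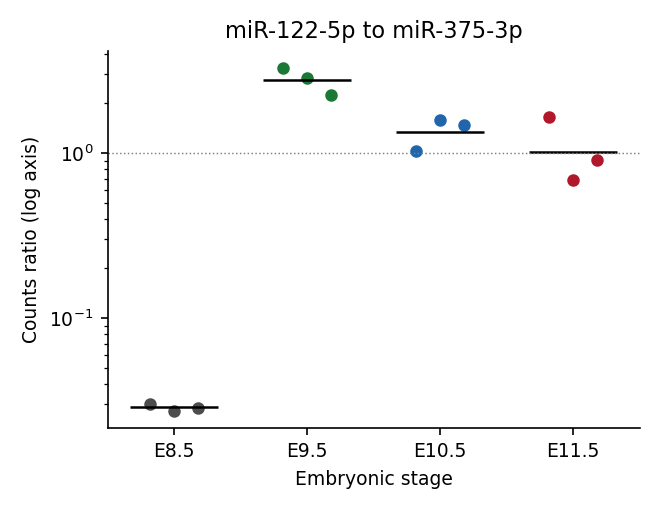
Ratio of miR-122-5p to miR-375-3p counts within each library, on a log axis, by embryonic stage. Points are libraries, bars are geometric means of 3 libraries and the dotted line marks equal counts. The E8.5 libraries lie near 0.03, the E9.5 libraries from 2.24 to 3.28, and the later libraries on both sides of or just above 1.

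Most other liver-related miRNAs were not called in any comparison, which also holds for most entries of any kind. Per comparison, edgeR called 0.35% to 11.6% of all entries. Of 9 arms listed for liver besides miR-122, 8 had an entry (miR-802-5p did not) and 7 were tested. In stage order, their summed share of counts averaged 1.02% (0.922 to 1.16%), 0.830% (0.310 to 1.54%), 1.14% (0.978 to 1.31%) and 0.966% (0.902 to 1.03%). These ranges overlapped between all stages, while those of miR-122-5p did not overlap between E8.5 and the later stages. Of the 7 tested, 1 was called from E8.5 to E9.5 and 0 in each of the other 5 comparisons by edgeR. In those 5, 3 of 35 tests had an unadjusted p under 0.05, and DESeq2 and limma voom each called 1 (miR-194-5p from E8.5 to E11.5). Their median log2 fold change from E8.5 to E9.5 was -0.16, beside -0.84 for all entries.

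miR-192-5p, a defining miRNA of hepatic and intestinal epithelium, was at 0 in 6 of the 12 libraries. In stage order it held 16, 0 and 0 counts, then 0, 2 and 0, then 33, 0 and 0, and then 118, 104 and 1. It was thus at 0 to 2 counts in 6 of the 9 Pdx1-Cre libraries, each of which held at least 1533 counts of miR-122-5p. Most counts of this hairpin lay in its precursor entry mir-192, however. Over the 12 libraries that entry held 83.2% of 1635 counts (49.6 to 100% per library with counts). The arm alone therefore leaves out most of what was counted for miR-192. miR-215-5p, which has the same seed, was at 0 or 1 count in every library but E11.5 replicate 3, with 83 counts.

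miR-194-5p, which is made from hairpins beside those of miR-192 and miR-215, was the liver-related arm that was called. Its counts in stage order were 56, 29 and 4, then 184, 3 and 68, then 127, 23 and 86, and then 207, 1076 and 606. Among the E9.5 libraries, replicate 2 overlapped with E8.5 at 32.0 CPM, against 2988 and 1720 CPM in the others. The log2 fold change from E8.5 to E9.5 was 4.73 (SE 1.34, adjusted p 0.0361), and the call was lost without any 1 of the E8.5 libraries (adjusted p 0.0657, 0.105 and 0.195 without replicates 1, 2 and 3) or without E9.5 replicate 1 (0.0852). With all libraries kept, 5 of 9 alternatives called it, and limma voom, library size alone, the fit of 2 stages and the replicate block did not (adjusted p up to 0.219). From E8.5 to E11.5 it was 3.62 (SE 1.27, adjusted p 0.0644), and it was called without E9.5 replicate 1, 2 or 3 (adjusted p 0.0489, 0.0161 and 0.0362). With all libraries kept, 5 of 9 alternatives called this difference too, DESeq2 (adjusted p 0.00864) and limma voom (0.0171) among them.

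The more abundant liver-related arms were already present at E8.5. miR-148a-3p was at 1914, 1289 and 1616 CPM, then 130, 1111 and 5538 CPM, then 2535, 5325 and 1013 CPM, and then 1420, 1374 and 1896 CPM, with no called difference. miR-483-5p, from an intron of the growth factor gene Igf2, averaged, in stage order, 5002 ± 1693, 4961 ± 6479, 6097 ± 1539 and 4487 ± 1235 CPM, with no called difference unless E9.5 replicate 3 was left out. Its partner arm miR-483-3p averaged between 1241 and 2146 CPM at all stages. miR-101a-3p and miR-101b-3p were lower on average at E9.5 than at E8.5. They held 1 to 3 and 1 to 2 counts per E9.5 library, within the floor of 3 counts. Their log2 fold changes were -3.18 (SE 1.81, adjusted p 0.283) and -3.77 (SE 1.67, adjusted p 0.217). Against E8.5, miR-101a-3p stood at -2.66 for E10.5 and -1.21 for E11.5, and miR-101b-3p at 0.72 and 0.26. Neither arm was called in any comparison by edgeR.

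**Figure D4:**
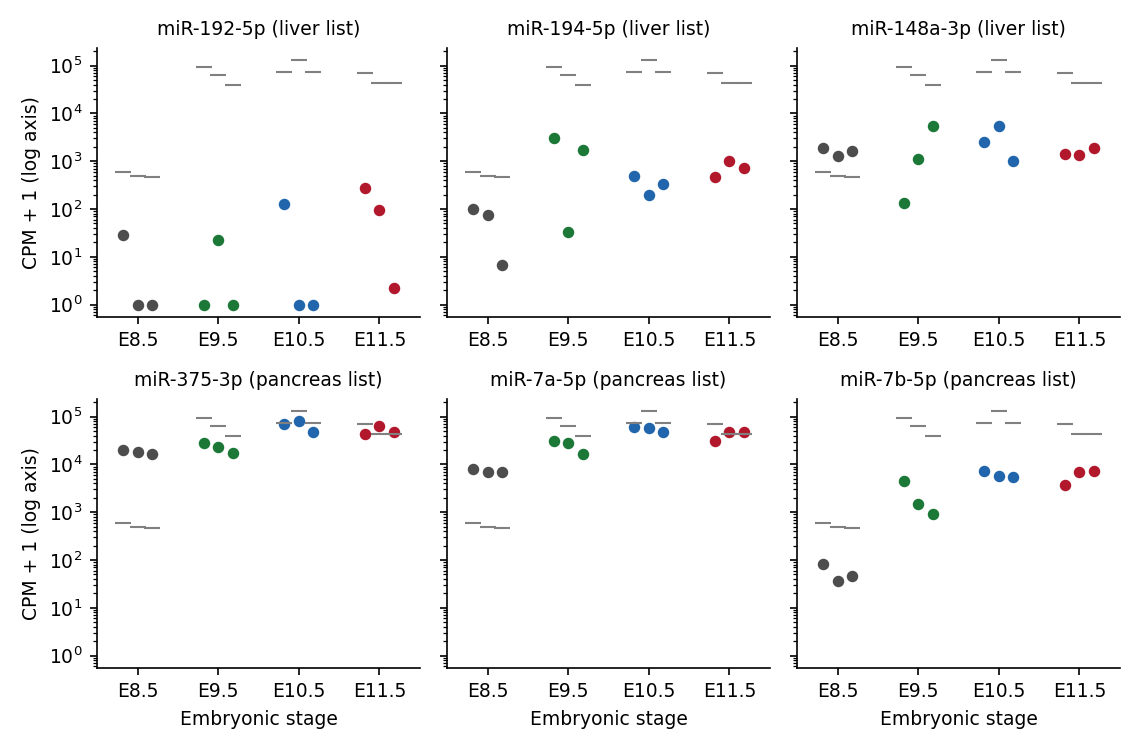
CPM + 1 on a log axis in each library for 3 liver-related arms (top) and 3 pancreas-related arms (bottom), with miR-122-5p of the same library as a grey dash. miR-192-5p is at or near 0 in most libraries, miR-148a-3p overlaps between all stages, and miR-7b-5p is at 36.2 to 79.6 CPM at E8.5 and at 910 CPM or more in every Pdx1-Cre library.

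Of the pancreas-related miRNAs, miR-375-3p, miR-7a-5p and miR-7b-5p were called higher in Pdx1-Cre cells than at E8.5 in at least 1 stage, and miR-216b-5p was called in no comparison. Of 6 arms listed, 5 had an entry and 4 were tested. Their summed share averaged, in stage order, 2.74% (2.48 to 3.07%), 4.91% (2.55 to 6.10%), 12.4% (10.9 to 13.6%) and 9.94% (8.08 to 11.7%), with overlap between E8.5 and E9.5. miR-216b-5p was at 0 in all E9.5 libraries and at 0 to 125 counts elsewhere. Of the 4, 2 were higher than at E8.5 in the E9.5 cells, 3 in the E10.5 cells and 3 in the E11.5 cells, and none was lower. Of all entries, 5.6%, 8.58% and 11.6% were called in these comparisons. From E9.5 to E10.5, where 4.38% of all entries were called, miR-375-3p and miR-7a-5p were higher (2 of 4). The miR-7a-5p call there (log2 fold change 1.13, SE 0.26, adjusted p 0.0128) was lost without E8.5 replicate 2, E9.5 replicate 3 or E10.5 replicate 1 or 2, with adjusted p up to 0.189. With all libraries kept, it was lost under RLE scaling, DESeq2, limma voom and the fit of 2 stages (log2 fold change down to 0.66, adjusted p up to 0.354). From E10.5 to E11.5, 0 of 4 were called by edgeR, DESeq2 or limma voom or had an unadjusted p under 0.05.

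miR-375-3p itself held 11297, 6917 and 11222 counts at E8.5 and 1713, 2116 and 685 counts in the shallow E9.5 libraries. In the E10.5 libraries it held 18325, 9589 and 12454 counts, and in the E11.5 libraries 18634, 68885 and 39550 counts. In CPM it averaged, in stage order, 17877 ± 1656, 22579 ± 5248, 66879 ± 17102 and 51016 ± 10693. It was thus already abundant in the E8.5 libraries, where miR-122-5p was low, though those libraries hold a different labelled population. Its log2 fold change was 0.34 from E8.5 to E9.5 (SE 0.25, adjusted p 0.418, though called with the size factors of the RLE method) and 1.57 from E9.5 to E10.5 (SE 0.25, adjusted p 0.000780, not called by limma voom with 0.217). miR-217-5p, abundant in exocrine pancreas, was at 0 to 2 counts in every library but E11.5 replicates 1 and 3, with 107 and 47 counts.

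Lists of miRNAs for other cell types were read beside the miR-122 values. Among all entries, edgeR called 0.35% to 11.6% per comparison. Blood-related arms (5 of 9 with an entry, 2 tested) summed to 0.0435 to 0.217% of counts in all libraries, with 0 of 2 called by edgeR, DESeq2 or limma voom, or at an unadjusted p under 0.05, in any of the 6 comparisons. miR-451a, of red cells, was at 0 to 20 counts. miR-223-3p, of myeloid cells, was not tested. It ranged from 0 to 105 counts (0 to 2655 CPM) in the E9.5 libraries, with a mean of 1443 ± 1342 CPM, and was at 0 or 1 count in every other library. The summed share of endothelial arms (2 of 2 tested) averaged 0.226% ± 0.0383 at E8.5 and 0.0249% to 0.0325% at the later stages. Over 6 comparisons edgeR called 0 of 12 tests, of which 3 had an unadjusted p under 0.05, and DESeq2 and limma voom called 2 each. Mesenchymal and muscle arms (8 with an entry, 6 tested) averaged, in stage order, 2.78% ± 1.49, 1.32% ± 0.883, 0.918% ± 0.638 and 0.707% ± 0.272. Against E8.5, edgeR called 1 of the 6 lower and 0 higher for E9.5, 1 lower and 1 higher for E10.5, and 1 lower and 2 higher for E11.5. Of all entries, 5.6%, 8.58% and 11.6% were called in these comparisons. The muscle arm miR-1a-3p was lower for E10.5 (log2 fold change -3.41, SE 0.82, adjusted p 0.00930) and E11.5 (-4.36, SE 0.86, adjusted p 0.00115), and miR-143-3p, of smooth muscle and fibroblasts, for E9.5 (-2.59, SE 0.53, adjusted p 0.00208). Of the other arms, miR-199a-5p and miR-214-3p went the other way. The more abundant miR-199a-3p averaged 720 ± 133 CPM at E8.5 and 786 ± 520 CPM at E11.5 (log2 fold change 0.13, SE 1.06, adjusted p 0.971). miR-145a-5p had log2 fold changes of -3.49, -4.34 and -1.21 for E9.5, E10.5 and E11.5 against E8.5. Neither of these was called against E8.5 by edgeR. miR-199a-5p, at 0 in all E8.5 libraries and on average at 197 ± 171 and 207 ± 135 CPM in the last 2 stages, was called higher at both (adjusted p 0.0219 and 0.0181). miR-214-3p, with 1 to 3 counts per library at E8.5 and 261 to 748 CPM in the E11.5 libraries, was called higher at E11.5 (adjusted p 0.0250).

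Epithelial arms of the miR-200 family (5 of 5 tested) averaged, in stage order, 1.08% ± 0.0283, 1.92% ± 0.367, 2.03% ± 0.516 and 3.37% ± 0.792 of counts. Of the 5, edgeR called 0 at E9.5 against E8.5 (2 at an unadjusted p under 0.05, 3 by DESeq2 and 0 by limma voom), 1 at E10.5 (miR-200b-3p, higher) and 3 at E11.5 (miR-200b-3p, miR-200c-3p and miR-429-3p, all higher). Beside these, 5.6%, 8.58% and 11.6% of all entries were called. Neural arms (2 of 3 tested) summed to at most 0.0591% in any library, with 0 of 12 tests called by edgeR, 3 at an unadjusted p under 0.05, and 2 by DESeq2 and 0 by limma voom. On average the sums of the endothelial list and of the mesenchymal and muscle list were lower in the Pdx1-Cre libraries. In the latter, miR-1a-3p was called lower against E8.5 at E10.5 and E11.5, and miR-143-3p at E9.5 alone. From E9.5 to E10.5 miR-143-3p rose (edgeR log2 fold change 2.02, SE 0.51, adjusted p 0.0237). Against E8.5 its differences of -0.56 at E10.5 and -0.96 at E11.5 were not called. miR-199a-5p and miR-214-3p went the other way. The sums of the epithelial and pancreatic lists were higher, together with miR-122. The part of this makeup in the miR-122 difference was not tested.

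The arms whose log2 CPM followed miR-122-5p most closely over the 12 libraries, of 376 mature arms compared, were miR-24-3p (Pearson r = 0.97), miR-7b-5p (0.95), miR-7a-5p (0.92), miR-382-5p (0.88) and miR-205-5p (0.88). These 12 points share the split between the E8.5 and the Pdx1-Cre libraries. Within the 9 Pdx1-Cre libraries the same coefficients were 0.23, 0.29, 0.40, 0.43 and -0.18, lower than over all 12. No member of this set is liver-related, but only 7 of the 376 arms compared are on the liver list, so this absence says little. miR-7a-5p and miR-7b-5p, which restrain growth signalling and are enriched in endocrine cells, belong to the pancreas list, of which 4 arms were compared.

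Of these 5 arms, miR-7b-5p had the largest log2 fold changes against E8.5. Its counts in stage order were 46, 14 and 31, then 274, 138 and 36, then 1920, 666 and 1414, and then 1589, 7688 and 6033. All Pdx1-Cre libraries lay above the E8.5 libraries in CPM, where 34.3% to 38.5% of tested entries did not overlap between E8.5 and a later stage. Against E8.5 the log2 fold change was 5.40 for E9.5 (SE 0.71, adjusted p 1.82e-05), 6.84 for E10.5 (SE 0.76, adjusted p 1.32e-06) and 6.79 for E11.5 (SE 0.76, adjusted p 8.62e-07). Without E9.5 replicate 1 the first of these was 4.39 and still called. miR-7a-5p, with the same seed and a sequence near to it, was more abundant at E8.5 and had smaller fold changes, with means in stage order of 7179 ± 679, 25212 ± 7657, 55369 ± 6921 and 41701 ± 9730 CPM. Its log2 fold change from E8.5 to E9.5 was 1.81 (SE 0.27, adjusted p 6.26e-05).

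miR-24-3p, a broadly expressed arm, averaged, in stage order, 2348 ± 492, 9280 ± 659, 11547 ± 1618 and 10176 ± 344 CPM. Its log2 fold change from E8.5 to E9.5 was 1.98 (SE 0.37, adjusted p 0.000860), and no difference between Pdx1-Cre stages was called. miR-382-5p, of the imprinted Dlk1-Dio3 cluster, averaged 5246 ± 84.2, 10352 ± 2137, 17028 ± 3048 and 15297 ± 4591 CPM, and was called against E8.5 at E10.5 (log2 fold change 1.70, SE 0.34, adjusted p 0.00166) and E11.5. At E9.5 edgeR did not call it (0.98, SE 0.33, adjusted p 0.0957), while 5 of 10 alternatives with all libraries did, DESeq2 among them (1.64, adjusted p 0.00114).

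miR-205-5p, an epithelial arm, averaged 183 ± 104, 993 ± 533, 1358 ± 296 and 1199 ± 302 CPM. Its calls at E10.5 (log2 fold change 2.89, SE 0.89, adjusted p 0.0451) and E11.5 (2.71, SE 0.88, adjusted p 0.0467) were lost when any 1 library of E8.5, E10.5 or E11.5 was left out, with adjusted p up to 0.168 and 0.165. With all libraries kept, 7 and 6 of 10 alternatives called them.

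**Figure D5:**
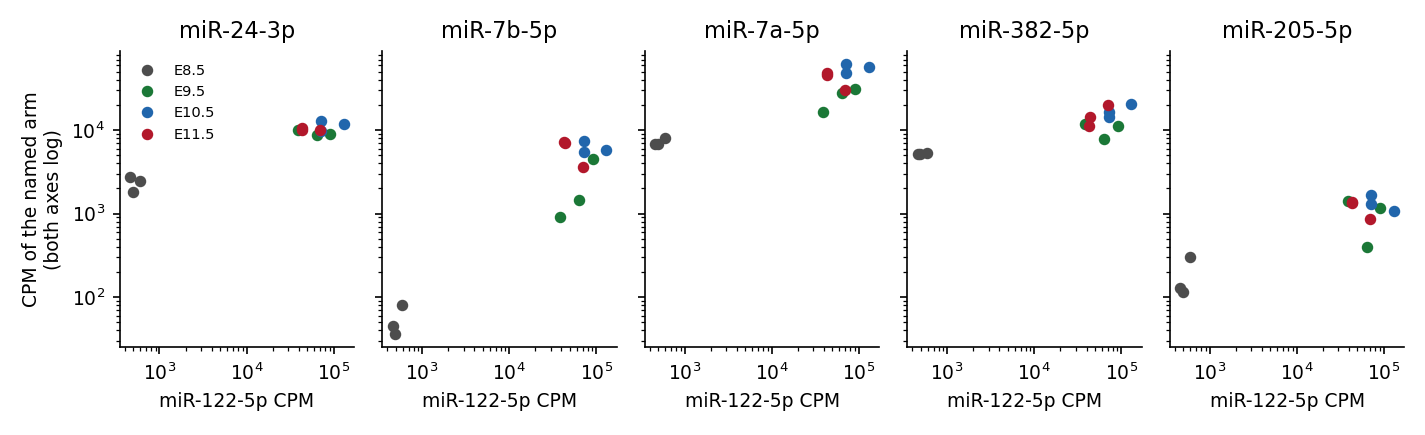
CPM of the 5 arms that followed miR-122-5p most closely, each against the CPM of miR-122-5p in the same library, on log axes. Points are libraries, with stages as given in the key. In every panel the 3 E8.5 libraries stand apart at the lower left, and the 9 Pdx1-Cre libraries form 1 cloud with coefficients from -0.18 to 0.43.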

How the data were processed

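Small RNA was sequenced (NEXTflex Small RNA-Seq kit v3, Illumina NextSeq, single-end) from 12 libraries. The authors trimmed the adapter and random bases, aligned reads to mm10 with STAR in COMPSRA and deposited raw read counts per mature or precursor miRNA, not normalised and not deduplicated. How reads were divided between arm and precursor entries is not given in the sources used here.

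The 12 count columns were grouped by stage and fitted in 1 model and tested by quasi-likelihood F-tests (edgeR 4.0.16, R 4.3.3, TMM scaling, factors 0.732 to 1.17, filterByExpr with a minimum count of 10 and a minimum total of 15, prior count 0.125). The p-values were adjusted by Benjamini-Hochberg over 571 entries and called under 0.05, and SE was the log2 fold change divided by the root of F. CPM used TMM-scaled totals, and shares used unscaled totals. The script was checked on simulated counts. Shares and ratios were compared with two-sided exact permutation tests (scipy 1.17.1), adjusted over 4 comparisons per measure, and intervals are exact (95%).

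The miR-122 entries, marker lists and tests were chosen with earlier results of these data known. Named miRNAs are the members, the 5 tested mature arms with the highest Pearson r to miR-122-5p (log2 CPM, prior count 2), entries ranked above it by mean share, and the listed markers with the highest CPM or a call. miR-101a-3p, miR-101b-3p, miR-145a-5p, miR-192-5p, miR-215-5p, miR-217-5p, miR-223-3p, miR-451a and mir-6236 were picked after their values were seen. So were the hairpins mir-7a-1, mir-92a-1 and mir-192 and the 3 sequences of the second set. Alternatives were RLE scaling, library size alone, scaling without miR-122, mature arms only, other low-count filters, DESeq2 1.42.0, limma 3.58.1 (voom), fits of 2 stages, a replicate block and each library left out.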

Additional observations from a re-analysis of the deposited data

How the results depend on the processing

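All 126 refits of the miR-122-5p and mir-122 differences against E8.5 kept their direction and their call, and 125 of 126 refits among Pdx1-Cre stages were not called. The largest shift of a called miR-122-5p value with all libraries kept was 7.57 at E9.5 (DESeq2). The mir-122 difference from E9.5 to E11.5 changed sign under limma voom (0.50) and the replicate block (0.53), and spanned -0.68 to 1.49 over the libraries left out. That of miR-122-5p spanned -0.62 to 0.10. The mir-122 difference from E9.5 to E10.5 spanned 0.45 to 2.62. The log2 ratio to miR-375-3p at E11.5 spanned -0.34 to 0.29. These moved with E9.5 replicate 1 or E11.5 replicate 1, as given above, and the cause was not tested. RLE scaling shifted the median of all entries from E8.5 to E9.5 by 0.64 and from E9.5 to E11.5 by -0.71, and relative to that median miR-122-5p stood at 7.78 and -0.97 there. Numbers of called entries moved more, from 17 (limma voom) to 70 (DESeq2) at E9.5 against E8.5, from 1 to 63 for E10.5 against E9.5, from 1 to 8 for E11.5 against E10.5, from 27 to 116 for E10.5 against E8.5, from 38 to 147 for E11.5 against E8.5, and from 6 to 56 for E11.5 against E9.5. Replicate numbers did not pair the samples (correlations of same-numbered libraries -0.16 to 0.12, 1 of 18 above 0.1, and 2 of 12 libraries closest to their own number). With the replicate block, 26 entries were called at E9.5 against E8.5. A minimum of 10 counts in every library removed mir-122, and the fit of mature arms was not run for it. Depth limits the E9.5 values most, and miR-122-3p at E8.5.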
